A study of Mus musculus with 21 samples.

Results

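In livers of mice given dexamethasone (DEX), glucocorticoid receptor signal was lower in hypoxia than in normoxia at 1 site in Ppard, 1 site in Scarb1 and 1 site beside Agtpbp1. These 3 falling sites are described here with all other receptor sites of the same genes. Overlapping receptor peaks of 18 libraries were merged into 7398 sites, and a site was given to the protein-coding gene whose span lay nearest to the site's centre, within 50 kb. This rule gave 18 sites: 5 for Ppard, 10 for Scarb1 and 3 for Agtpbp1. The genes were chosen by their normalized tags, as holding some of the strongest falls in hypoxia with DEX, so every value that sets hypoxia against normoxia with DEX at these sites is a description and carries no test. Of the 18 sites, 14 lay inside a gene's span. The farthest of the other 4 lay 27768 bp from Scarb1, and no further site was nearest to any of the 3 genes beyond 50 kb.

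Livers came from C57BL/6J mice in 6 groups with 3 biological replicates each, and all mice were injected 2 h before sampling. The labels give no genetic change and no age. The groups were 6 h hypoxia with DEX, 24 h hypoxia with DEX, normoxia with DEX, 6 h hypoxia with phosphate-buffered saline (PBS), 24 h hypoxia with PBS and normoxia with PBS. Hypoxia was 7% oxygen in a chamber, to which the mice were returned after injection, and DEX, a synthetic glucocorticoid, was given at 10 mg/kg. Receptor-bound chromatin was recovered from snap-frozen whole liver with 1 antibody and sequenced (ChIP-seq). Whole liver is a mixture of cells, so fewer cells with a bound receptor and less bound receptor per cell cannot be told apart in any value given here. Gene expression was not analysed here.

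The glucocorticoid receptor is a nuclear receptor that moves to the nucleus and binds DNA when it holds a glucocorticoid, and in liver it is best known for directing the response to fasting and stress. Ppard encodes PPAR delta, a nuclear receptor that binds fatty acids and, paired with a retinoid X receptor, switches on genes of fatty acid use. Scarb1 encodes SR-BI, the receptor through which hepatocytes take up cholesterol from high-density lipoprotein (HDL). Agtpbp1 encodes a carboxypeptidase that shortens the glutamate side chains of tubulin, and its loss causes Purkinje cell degeneration in mice.

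Signal at a site is the authors' normalized tag count, that is, aligned reads at the peak per 10000000 of the library. A library without a peak at a site has no value there. The DEX libraries held 5772670 to 13181686 tags and the PBS libraries 8667179 to 43645787. The peak caller's minimum of 50 tags therefore stood for 37.9 to 86.6 normalized tags with DEX and 11.5 to 57.7 with PBS. A pair of DEX libraries stood apart: 6 h hypoxia DEX replicate 2, the shallowest, had the highest median over the 935 sites called in all 9 DEX libraries (202.7 tags), and 24 h hypoxia DEX replicate 1 had the lowest (89.7, against 114.2 to 156.3 in the other 7). The share of tags inside peaks was 1.93% to 3.15% after 6 h of hypoxia with DEX, 1.38% to 2.76% after 24 h with DEX and 2.85% to 3.68% in normoxia with DEX; its part in the results was not tested beyond the fit with that share as a covariate.

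Sites are numbered along the chromosome within each gene, on mm10, and gene spans and identifiers are from RefSeq on GRCm38.p6. Exons and introns were not used here. Ppard (gene 19015) spans chr17:28232754-28301469 on the plus strand, and all 5 of its sites lie inside it. Its falling site is site 3, at chr17:28272320-28272546, with its centre 39679 bp downstream of the annotated start. The same 227 bp lie within the long non-coding RNA gene 1810013A23Rik (gene 69050), 725 bp from that gene's start. Scarb1 (gene 20778) spans chr5:125277087-125341094 and holds 7 of its 10 sites, with the falling site 6 at chr5:125297359-125297566. Agtpbp1 (gene 67269) spans chr13:59449534-59557370 on the minus strand. Its falling site 1, at chr13:59446666-59446880, is outside the gene, with its centre 2761 bp past the 3′ end, and its sites 2 and 3 lie inside.

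The sequence of the falling sites themselves was not used here. The start windows of the genes around the Ppard falling site are shown because a second, weaker Ppard site overlaps one of them. The windows are RefSeq sequence on GRCm38.p6, read 5′ to 3′. Capitals mark a match to ACANNNTGT, a core of 3 letters from each of the 2 half-sites that a receptor pair prefers. The core reads the same on both strands. The first window is chr17:28271458-28271757 (plus strand), which covers 250 bases before and 50 bases from the start of 1810013A23Rik.
1810013A23Rik: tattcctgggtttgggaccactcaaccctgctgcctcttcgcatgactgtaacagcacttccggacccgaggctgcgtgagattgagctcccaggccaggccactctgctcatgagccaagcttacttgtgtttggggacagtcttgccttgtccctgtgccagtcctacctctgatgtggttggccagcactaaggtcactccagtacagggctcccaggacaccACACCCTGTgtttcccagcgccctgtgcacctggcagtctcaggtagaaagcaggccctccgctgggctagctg
The second is chr17:28232504-28232753 (plus strand), the 250 bases before the Ppard start.
Ppard: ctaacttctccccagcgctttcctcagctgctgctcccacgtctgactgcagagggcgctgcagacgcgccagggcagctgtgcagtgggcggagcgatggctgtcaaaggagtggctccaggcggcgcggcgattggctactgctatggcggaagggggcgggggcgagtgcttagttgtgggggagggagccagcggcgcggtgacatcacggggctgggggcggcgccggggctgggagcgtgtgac
The 1810013A23Rik window held 1 match, ACACCCTGT at chr17:28271684-28271692, inside Ppard site 2. Of 32851 windows of 300 bases in the same table, 2249 (6.85%) held a match. The Ppard window held none, and 5.84% of all stretches of 250 bases before a start held one. Site 2 had peaks in 2 libraries, and neither the Ppard start window nor any of the 3 Agtpbp1 start windows overlapped a peak of any library. A match of letters is a description of the sequence and does not show that the receptor binds there.

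At the Ppard falling site, the mean signal in hypoxia with DEX was 34.2% of the mean in normoxia with DEX. Tags were 143.3, 178.4 and 95.2 after 6 h of hypoxia, 88.9, 213.6 and 215.9 after 24 h of hypoxia, and 374.8, 546.0 and 446.7 in normoxia, all with DEX and in replicate order. The means were 139 ± 41.8 after 6 h, 173 ± 72.7 after 24 h and 456 ± 86.0 in normoxia (SD, n = 3 each). All 6 hypoxia libraries lay below all 3 normoxia libraries, and the values at 6 h and 24 h overlapped. Over the 935 sites called in all 9 DEX libraries, 1.71% had all 6 hypoxia libraries below all 3 normoxia libraries on this scale, and 0.535% had them all above.

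At the Scarb1 falling site, the mean in hypoxia was 38.6% of that in normoxia. Tags were 133.7, 285.8 and 178.9 after 6 h of hypoxia, 69.2, 168.4 and 146.3 after 24 h of hypoxia, and 486.3, 426.7 and 360.0 in normoxia, again with DEX. The means were 199 ± 78.1 after 6 h, 128 ± 52.1 after 24 h and 424 ± 63.2 in normoxia (SD, n = 3 each). The highest hypoxia value came from 6 h replicate 2, the shallowest library, and was below the lowest normoxia value. The lowest came from 24 h replicate 1.

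The Agtpbp1 falling site had the highest signal of the 18 sites in each of the 9 DEX libraries. Tags were 406.4, 393.2 and 302.6 after 6 h of hypoxia, 141.9, 366.1 and 397.9 after 24 h of hypoxia, and 713.9, 824.7 and 719.9 in normoxia. The means were 367 ± 56.5 after 6 h, 302 ± 140 after 24 h and 753 ± 62.3 in normoxia (SD, n = 3 each), and the mean in hypoxia was 44.5% of that in normoxia. Hypoxia and normoxia did not overlap here either. The wide spread at 24 h came from replicate 1, whose 141.9 tags were under the other 8 DEX libraries. No PBS library had a peak at any of the 3 falling sites.

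**Figure D1:**
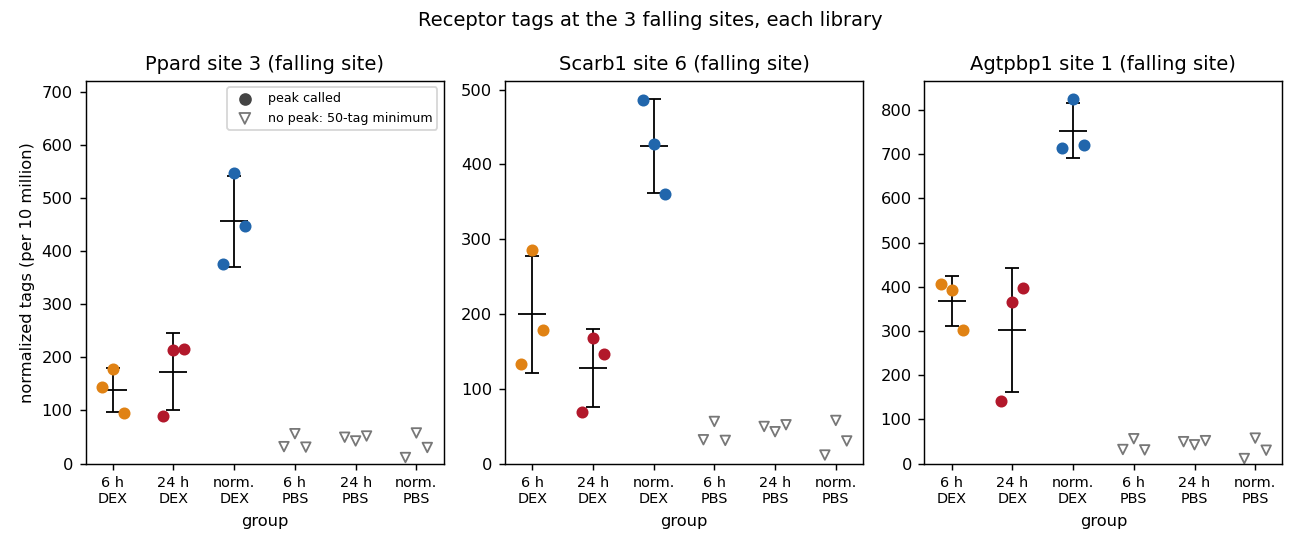
Normalized tags per 10000000 at the falling site of each gene, by group (6 h hypoxia, 24 h hypoxia and normoxia, with DEX and then with PBS). Filled points are libraries with a peak, bars are the mean ± SD of 3 libraries, and open triangles stand at a library's 50-tag minimum where no peak was called. The 3 normoxia DEX points of each site lie above the 6 hypoxia DEX points, and the 9 PBS libraries have no peak.

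On a scale that removes differences in overall signal between libraries, log2(tags + 1) centred on each library's median over the 935 sites, the falls were of similar size. The log2 change in hypoxia (6 h and 24 h together) relative to normoxia was -1.46 ± 0.21 (SE) at the Ppard site, -1.33 ± 0.19 at the Scarb1 site and -1.10 ± 0.19 at the Agtpbp1 site. Ordered from the most negative, these were changes 1, 2 and 5 of 935, and 5 of the 935 sites had a change below -1. The median change over all 935 sites was 0.05, with the 5th percentile at -0.39 and the 95th at 0.43. Over the 935 sites, limma called 13 lower (1.39%) and 19 higher (2.03%) in hypoxia at an adjusted p under 0.05. Without the centring, which moved the median change over all sites to -0.10, it called 9 lower and 2 higher. With the share of tags in peaks as a covariate, the changes were -1.51 ± 0.27 for Ppard, -1.15 ± 0.23 for Scarb1 and -0.998 ± 0.236 for Agtpbp1. Without both libraries that stood apart, they were -1.35 ± 0.23, -1.27 ± 0.18 and -0.88 ± 0.14.

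The 3 sites stood high among all sites in normoxia and lower in hypoxia. Ranked by tags among the 935 sites, with 1 the highest, the Ppard site stood at 226 to 604 over the hypoxia DEX libraries and at 37 to 88 over the normoxia DEX libraries. The Scarb1 site stood at 238 to 665 in hypoxia and at 48 to 92 in normoxia. The Agtpbp1 site stood at 71 to 234 in hypoxia and at 14 to 20 in normoxia. These ranks use no scaling between libraries, and the ranges of hypoxia and normoxia did not overlap for any of the 3. The 3 sites were chosen for their fall, and the share of the 935 sites with separate ranges was not counted. Ranked by the peak caller's score, in which stacked reads at 1 base are capped, the ranges were 205 to 586 in hypoxia and 31 to 82 in normoxia for Ppard, 209 to 655 and 65 to 120 for Scarb1, and 56 to 212 and 14 to 18 for Agtpbp1.

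Other sites with like signal in normoxia mostly kept it. The Ppard site was set beside the 41 other sites whose normoxia DEX mean lay within a factor of 1.2 of its own: their median log2 change in hypoxia was 0.07. None could fall further, since the Ppard site had the most negative change of all 935. For the Scarb1 site the 44 such sites had a median of 0.09, and 1 of them, the Ppard site, fell further. For the Agtpbp1 site the 14 such sites had a median of 0.12 and a lowest change of -0.31. The plot of change against normoxia signal shows the 3 sites at its lower right, below most other strong sites. They were not alone there. A site whose nearest gene was Cdk17 averaged 968 tags in normoxia DEX and changed by -1.11. Its level lay outside the factor of 1.2 set around the Agtpbp1 site. A site whose nearest gene was Stk4 averaged 218 tags and changed by -1.14.

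**Figure D2:**
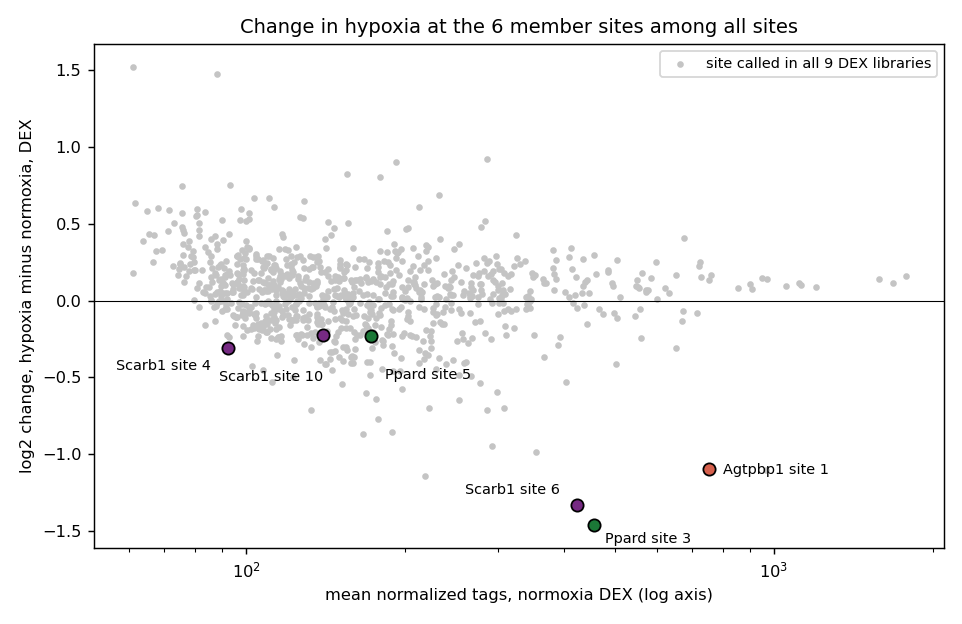
Log2 change in hypoxia DEX relative to normoxia DEX (vertical axis, library-centred) against mean normalized tags in normoxia DEX (horizontal log axis) for the 935 sites called in all 9 DEX libraries, drawn as grey points. The 6 labelled points are sites of Ppard, Scarb1 and Agtpbp1: the 3 falling sites lie at -1.46, -1.33 and -1.10, and the other 3 between -0.31 and -0.22.

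The time spent in hypoxia was a comparison that the choice of the genes had not used. Relative to 6 h, the log2 change at 24 h with DEX was 0.52 ± 0.20 (SE) at the Ppard site (limma, adjusted p = 0.214), -0.39 ± 0.20 at the Scarb1 site (adjusted p = 0.332) and -0.14 ± 0.21 at the Agtpbp1 site (adjusted p = 0.786). None of the 3 passed the threshold of 0.05, which leaves differences within these errors undetected. Over the 935 sites, limma called 12 lower (1.28%) and 1 higher (0.107%) at 24 h. Over all alternative settings the adjusted p was 0.105 to 0.838 for Ppard, 0.182 to 0.766 for Scarb1 and 0.469 to 0.994 for Agtpbp1, and the small change at the Agtpbp1 site turned to 0.12 without 24 h replicate 1. Set against normoxia, as a description, the Ppard site was at -1.72 ± 0.20 after 6 h and -1.20 ± 0.20 after 24 h, the Scarb1 site at -1.13 ± 0.20 and -1.52 ± 0.20, and the Agtpbp1 site at -1.03 ± 0.21 and -1.16 ± 0.21.

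Peak position was alike across the groups, and input signal was low in all 3 oxygen conditions. Peak centres of the 9 DEX libraries lay within -24 to 18 bp of their median at the Ppard site, -16 to 3 bp at the Scarb1 site and -8 to 14 bp at the Agtpbp1 site. Input DNA was 1 library per oxygen condition. At the Ppard site the input stood at 1.33 to 1.40 tags per 10000000 after 6 h, 0.40 to 1.24 after 24 h and 1.43 to 1.47 in normoxia. It was 0.87 to 0.95 after 6 h, 1.66 to 1.71 after 24 h and 2.20 to 2.25 in normoxia at the Scarb1 site. At the Agtpbp1 site it was 0.87 to 0.95, 0.79 to 0.87 and 2.20 to 2.25. Each range is over the libraries set against that input, and receptor tags at these sites were 69.2 or more in every DEX library.

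Of the other 4 sites of Ppard, sites 1 and 5 had peaks in most hypoxia libraries, and sites 2 and 4 were mostly below the minimum there. Site 5, at chr17:28283236-28283451 and 10.91 kb from the falling site, had 129.4, 200.9 and 139.9 tags after 6 h, 64.1, 143.5 and 148.7 after 24 h, and 138.1, 199.5 and 179.6 in normoxia. Hypoxia and normoxia overlapped, and the log2 change was -0.23 ± 0.17 (SE). Site 1, at chr17:28236056-28236268 and 3408 bp downstream of the Ppard start, had 94.4 and 50.4 tags in 6 h replicates 1 and 3, no peak in 6 h replicate 2, 44.4, 72.3 and 83.8 tags after 24 h, and 93.3, 152.7 and 140.9 in normoxia. Its lowest normoxia value lay just under its highest hypoxia value. Site 4, at chr17:28279332-28279628, had 1 hypoxia peak, of 47.5 tags in 24 h replicate 3, and 91.8, 108.8 and 85.2 tags in normoxia. Site 2, at chr17:28271512-28271710, had 70.6 and 92.6 tags in normoxia replicates 1 and 2 and no peak in hypoxia.

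Of the other 9 sites of Scarb1, 2 were called in all 9 DEX libraries. Neither could fall further than the falling site, which was chosen as the site with the most negative change. Site 10, at chr5:125330185-125330465, had 97.9, 159.4 and 100.9 tags after 6 h, 69.2, 119.8 and 121.8 after 24 h, and 146.4, 143.2 and 130.8 in normoxia, with a log2 change of -0.22 ± 0.12 (SE). Its tags overlapped between hypoxia and normoxia, while its centred values did not: they were -0.47 to -0.18 in hypoxia and -0.09 to -0.07 in normoxia, a pattern found in that direction at 3.21% of the 935 sites and in the opposite direction at 5.03%. Site 4, at chr5:125286025-125286334, had 62.1, 123.0 and 66.6 tags after 6 h, 53.8, 68.9 and 45.9 after 24 h, and 105.4, 91.6 and 80.5 in normoxia, with overlap on both scales and a log2 change of -0.31 ± 0.18. Site 9, at chr5:125326045-125326279, averaged 80.0 ± 10.6 tags after 6 h (SD, n = 2), 78.6 ± 21.6 after 24 h (n = 3) and 77.1 ± 2.7 in normoxia (n = 3). Those means differed by less than the spread between replicates. Site 8 had 53.8 tags in 24 h replicate 3 and 48.6, 64.9 and 65.8 in normoxia. Site 5 had 72.1 and 56.5 tags in normoxia replicates 1 and 3. Sites 1, 2, 3 and 7 were each called once, in normoxia DEX replicate 1, the deepest DEX library, with 40.2, 51.6, 40.2 and 41.0 tags, near that library's minimum of 37.9.

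At Agtpbp1, site 3 was lower in hypoxia as well as the falling site. Site 3, at chr13:59467660-59467884 inside the gene, had 102.3, 145.5 and 92.3 tags after 6 h, 110.7 and 104.4 in 24 h replicates 2 and 3, no peak in 24 h replicate 1, and 213.2, 218.6 and 174.9 in normoxia. The 5 hypoxia values lay below the 3 normoxia values. How many sites with a missing library do the same was not counted. Site 2, at chr13:59454317-59454719, had 56.9 and 48.8 tags in normoxia DEX replicates 1 and 3 and no peak in hypoxia. A second site with a lower mean in hypoxia was not particular to Agtpbp1. Ppard site 1 averaged 72.4 ± 31.1 tags after 6 h (SD, n = 2), 66.8 ± 20.3 after 24 h (n = 3) and 129 ± 31.4 in normoxia (n = 3), all with DEX.

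**Figure D3:**
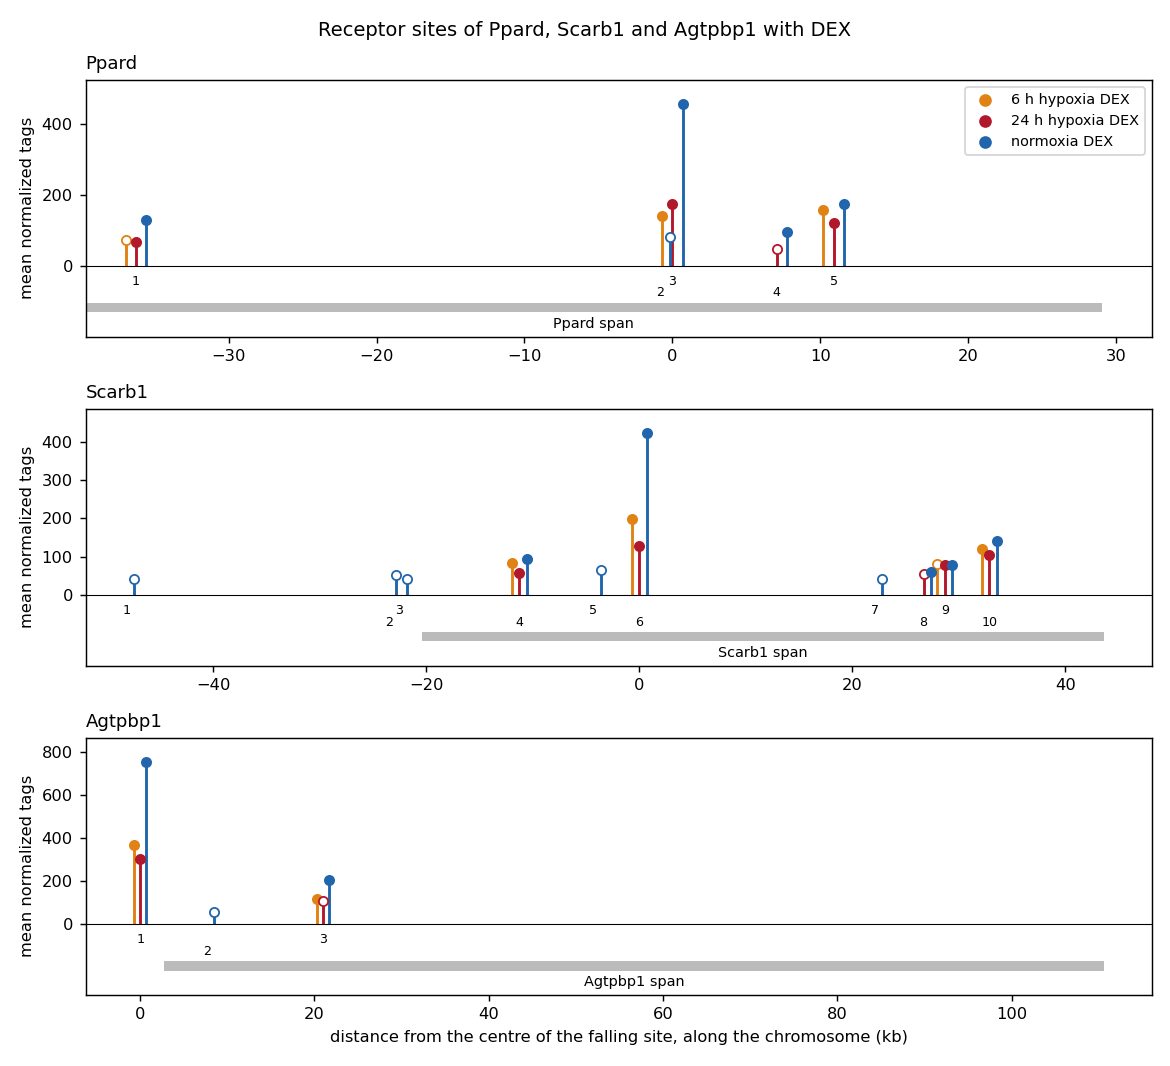
Mean normalized tags with DEX (stems) at each site against its distance in kb from the centre of the gene's falling site, for 6 h hypoxia, 24 h hypoxia and normoxia; stems of 1 site are set side by side, open circles are means over fewer than 3 libraries, a missing stem means no peak, and the grey bar is the gene's span. The tallest stem of each gene is the falling site in normoxia, at 456, 424 and 753 tags.

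Within a library, the falling site can be set directly against another site of its gene, which needs no scaling. For Ppard, site 3 over site 5 was 0.68 to 1.49 in the 6 hypoxia DEX libraries and 2.49 to 2.74 in the 3 normoxia DEX libraries. The ratio of site 3 to site 1 was 1.52 to 2.95 in 5 hypoxia libraries and 3.17 to 4.02 in normoxia. For Scarb1, site 6 over site 10 was 1.00 to 1.79 in hypoxia and 2.75 to 3.32 in normoxia, and site 6 over site 4 was 1.29 to 3.19 and 4.47 to 4.66. Over site 9 it was 1.21 to 2.16 in 5 hypoxia libraries and 4.52 to 6.55 in normoxia. In these 5 pairs hypoxia and normoxia did not overlap. The share of site pairs in other genes that separate in the same way was not counted. For Agtpbp1, site 1 over site 3 was 2.70 to 3.97 in 5 hypoxia libraries and 3.35 to 4.12 in normoxia, and these ranges overlapped. These ratios are a description. The falling site was chosen as the site of its gene with the most negative change, which by itself favours a lower ratio in hypoxia. At Agtpbp1 sites 1 and 3 were both lower, and their ratio stayed within the spread of the libraries.

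**Figure D4:**
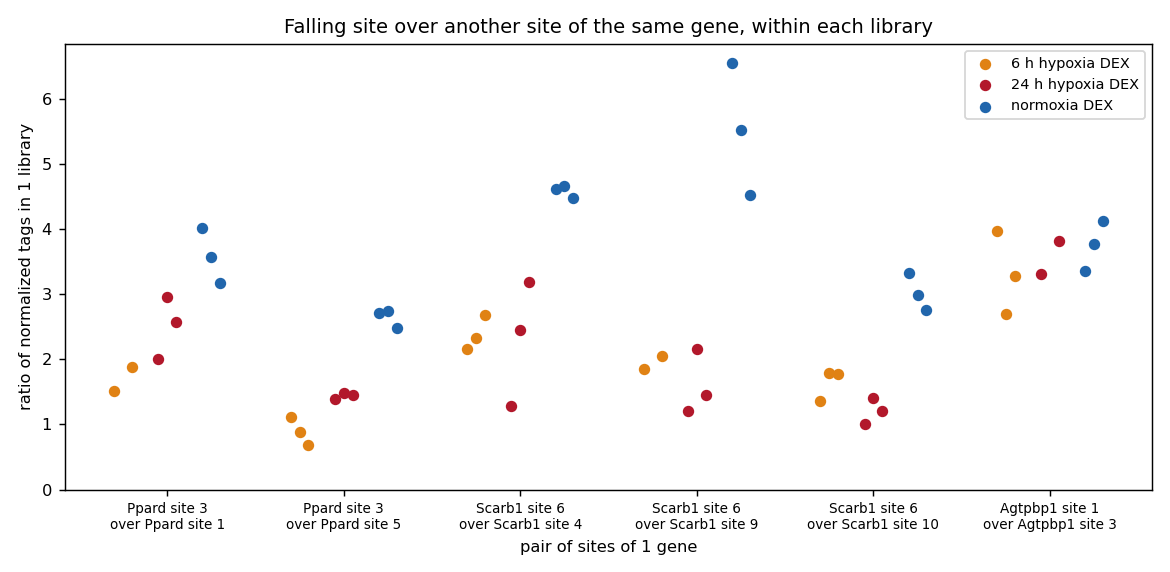
Ratio of normalized tags at the falling site to those at another site of the same gene, 1 point per DEX library with a peak at both, for 6 h hypoxia, 24 h hypoxia and normoxia. Normoxia points lie above hypoxia points in the 5 Ppard and Scarb1 pairs and overlap them in the Agtpbp1 pair, at 2.70 to 3.97 in hypoxia and 3.35 to 4.12 in normoxia.

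Detection of the 18 sites by oxygen condition was near that of all sites. Sites of the 3 genes that were called in normoxia DEX and in no hypoxia DEX library numbered 7 of 18, and over all 4129 sites called with DEX this was 33.5%, with the reverse at 4.36%. All 7 were weak sites, at 40.2 to 92.6 tags, and 4 of them were called in the deepest DEX library alone. At a common minimum of 86.6 normalized tags, that of the shallowest DEX library, the Ppard and Agtpbp1 falling sites were called in 9 of 9 DEX libraries and the Scarb1 falling site in 8 of 9. Ppard site 5, Scarb1 site 10 and Agtpbp1 site 3 were called in 8 of 9 at that minimum, Ppard site 1 in 4 and Scarb1 site 4 in 3.

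Receptor sites of these genes were called with DEX and rarely with PBS. Of the 18 sites, 15 had no peak in any PBS library, the 3 falling sites among them, and 72.2% of all sites called with DEX had none. Of the 6 sites called in all 9 DEX libraries, 4 had no PBS peak, against 22.4% of all 935 such sites. At the falling sites the lowest DEX values, 88.9 tags for Ppard, 69.2 for Scarb1 and 141.9 for Agtpbp1, were above the highest PBS minimum of 57.7. Calling in 9 of 9 DEX libraries was a condition for choosing them, so no test is given. Of the other 15 sites, 9 had peaks in 3 or more libraries and were tested with the exact, two-sided test of Cochran, Mantel and Haenszel, with the oxygen conditions as strata. Of these 9, 6 were called more often with DEX than with PBS, against 55.3% (1418 of 2563) of all sites tested, and none less often, against 0.039%.

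The 6 sites were Ppard sites 1 and 5, Scarb1 sites 4, 9 and 10, and Agtpbp1 site 3. Ppard site 5 had a peak in 9 of 9 DEX and 0 of 9 PBS libraries (adjusted p = 0.00307). Scarb1 site 4 had peaks in 9 DEX libraries and 1 PBS library, 6 h replicate 3 with 35.4 tags, and Ppard site 1, Scarb1 site 9 and Agtpbp1 site 3 had peaks in 8 DEX and 0 PBS libraries (exact test, adjusted p = 0.00438 for each of the 4). Scarb1 site 10 was the site of the 3 genes with the most PBS peaks: 45.3 tags in 6 h replicate 3, 56.6 in 24 h replicate 1 and 20.8 in normoxia replicate 1 (9 of 9 DEX against 3 of 9 PBS, exact test, adjusted p = 0.0337). At the common minimum, the calls of Ppard site 1 (adjusted p = 0.0697) and Scarb1 site 4 (adjusted p = 0.222) were lost in the same exact test. The call of Scarb1 site 9 was lost too, since peaks in 2 DEX libraries and 0 PBS libraries were too few to test.

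The remaining 3 tested sites did not pass. Ppard site 4 and Scarb1 site 8, each with peaks in 4 DEX and 0 PBS libraries, had an adjusted p of 0.0764 in the exact test. In the same test it was 0.0326 without 24 h hypoxia DEX replicate 1 and 0.0329 without replicate 2. It rose to 0.128 without 24 h hypoxia DEX replicate 3 and to 0.171 with a replicate block. Agtpbp1 site 2 had peaks in 2 DEX libraries and 1 PBS library, normoxia replicate 1 with 12.8 tags (exact test, adjusted p = 1.0). That PBS library was the deepest, with a 50-tag minimum of 11.5 normalized tags.

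Without DEX, oxygen could be compared at 1 site of the 3 genes. Scarb1 site 10 was called in 2 of 6 hypoxia PBS libraries and 1 of 3 normoxia PBS libraries (Fisher's exact test, two-sided, adjusted p = 1.0). Of 632 sites tested in the same way, 0 passed in either direction, and at an unadjusted p under 0.05 there were 1 higher and 2 lower in hypoxia. Whether hypoxia changed the 3 falling sites without DEX could not be seen, since no PBS library had a peak there.

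**Figure D5:**
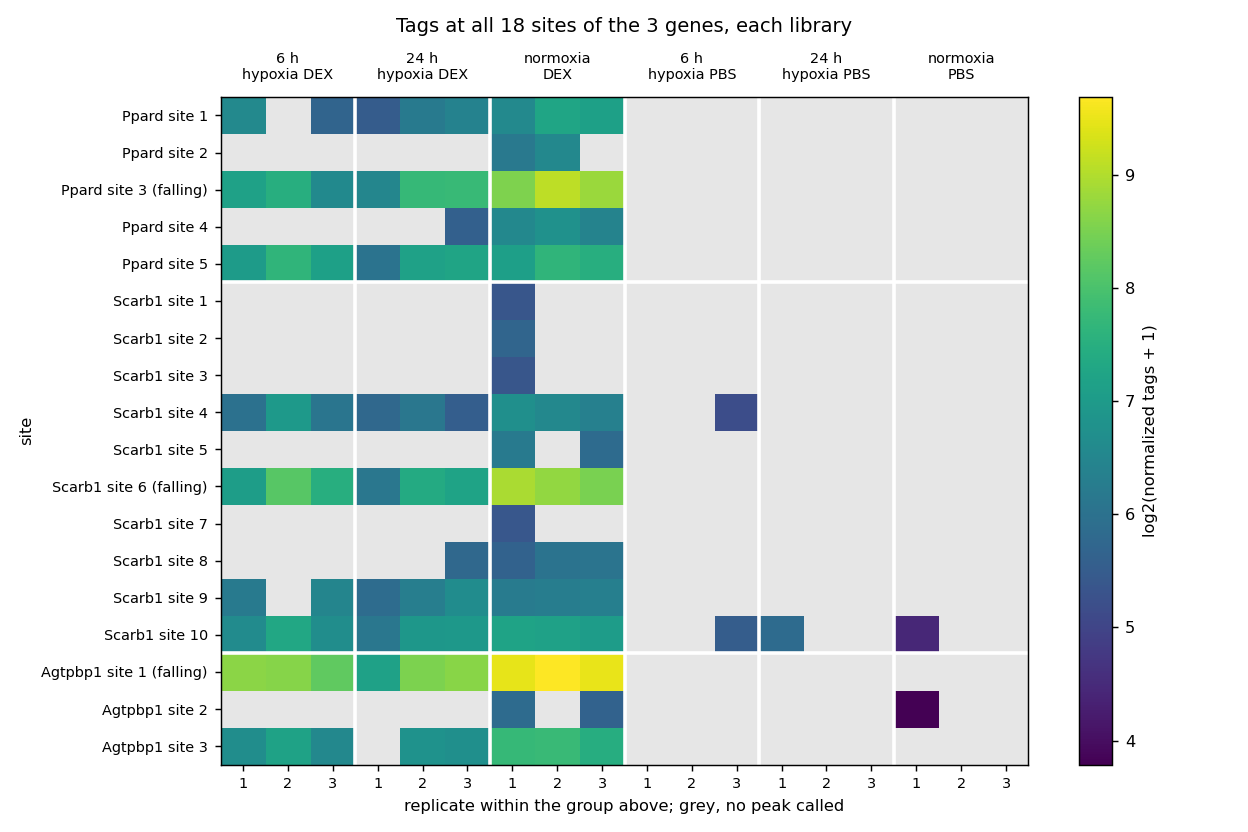
Tags at each of the 18 sites (rows) in each of the 18 libraries (columns, grouped as 6 h hypoxia, 24 h hypoxia and normoxia with DEX, then with PBS), as log2(normalized tags + 1) by colour; grey means that no peak was called. The 3 falling rows are brightest in normoxia DEX, and 5 PBS cells hold a peak, at 12.8 to 56.6 tags.

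Around the Ppard and Agtpbp1 falling sites, nearby genes held no receptor sites. Within 100 kb of the Ppard falling site lie Fance, Def6, Rpl10a, Tead3, Zfp523, Tulp1 and Scube3, and none of the 7 was the nearest gene of any site. No other protein-coding gene lies within 100 kb of the Agtpbp1 falling site.

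The pattern over the 9 DEX libraries was compared with that of every other site called in all 9, as the root mean square difference of log2 tags after centring by library and site. The falling sites were chosen for their fall in these same libraries. Their likeness to each other and their distance from the median site therefore follow in part from that choice. The sites most like the Ppard falling site were the Agtpbp1 falling site (difference 0.36), a site in Rab11fip4 (0.42) and a site in Tpst2 (0.44), with a median over all sites of 0.81. For the Scarb1 falling site they were a site in Map3k1 (0.34), the Agtpbp1 falling site (0.35) and a site in Srebf2 (0.36), with a median of 0.75. For the Agtpbp1 falling site they were sites near Cdo1 (0.26) and Slc25a51 (0.30), 4510 and 3442 bp from those genes, and the same site in Tpst2 (0.31), with a median of 0.64. Tags differed in level between like sites: the Tpst2 site averaged 92.3 after 6 h, 78.4 after 24 h and 167 in normoxia, and the Map3k1 site 113, 78.2 and 178.

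Other genes of the 3 pathways, from lists chosen with earlier results of these data known, could be followed in the fit at 3, 6 and 2 sites, since the fit needs a peak in all 9 DEX libraries. Of 31 further PPAR genes, 18 had a site, against 22.1% of all protein-coding genes, and 10 of their 21 tested sites were called more often with DEX (55.3% of all sites tested), 0 less often. These 10 lay at Creb3l3, Ppara, Ppargc1b, Cpt1a, Rxra, Pparg and Acsl1. Their 3 sites in the fit of the 935, at Ppara, Ppargc1b and Cpt1a, had a median log2 change of 0.05 in hypoxia, against 0.05 over all sites, and none passed the limma test. Of the 35 sites called with DEX, 15 were called in normoxia and in no hypoxia library, against 33.5% of all sites; of these, a site in Acsl1, named after its values were seen, averaged 123 ± 29.4 tags in normoxia DEX (SD, n = 3). The strongest, in Ppara, which encodes the main PPAR of liver, averaged 267 ± 76.8 tags in hypoxia DEX (SD, n = 6) and 266 ± 22.2 in normoxia DEX (n = 3), a log2 change of 0.09 ± 0.15 (SE, limma, adjusted p = 0.814).

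Of 37 further genes of HDL and cholesterol handling, 23 had a site, against 22.1% of all protein-coding genes. Of 19 tested sites, 12 were called more often with DEX (55.3% of all sites tested), 0 less often. These 12 included sites at Insig1, Insig2, Srebf2, Abca1, Npc1, Lrp1, Apoe and Lcat. Of 33 sites called with DEX, 16 were called in normoxia and in no hypoxia library, against 33.5% of all sites. Of 6 sites in the fit, with a median log2 change of -0.17, 1 was lower in hypoxia at the limma threshold: the site in Srebf2, the gene of the transcription factor that drives cholesterol synthesis, at 99.9 ± 47.4 tags in hypoxia (SD, n = 6) and 189 ± 41.9 in normoxia (n = 3) (-0.86 ± 0.19, limma, adjusted p = 0.0245). That call was lost in limma without normoxia DEX replicate 1 (adjusted p = 0.0844) or replicate 2 (adjusted p = 0.154), and with the centring on the 62 sites called in all 18 libraries (adjusted p = 0.0692) or the share of tags in peaks as a covariate (adjusted p = 0.234). The site near Insig2, whose protein holds that factor back, had the highest mean of the list over the 9 DEX libraries together, though not in normoxia alone, at 138 ± 38.7 tags in hypoxia (SD, n = 6) and 143 ± 23.4 in normoxia (n = 3).

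Of 27 further genes of tubulin modification, 7 had a site, against 22.1% of all protein-coding genes. Of their 6 sites called with DEX, 1 was called in normoxia and in no hypoxia library, against 33.5% of all sites. Of 4 tested sites, 3 were called more often with DEX, at Ttll4, Tubd1 and Ttll8, against 55.3% of all sites tested. Ttll4 encodes a ligase of the family that adds glutamates to tubulin, the reverse of what the Agtpbp1 enzyme does. Tubd1 encodes delta-tubulin, which is itself a tubulin and not a modifying enzyme. Of 2 sites in the fit, that 2390 bp from Tubd1 was higher in hypoxia, at 149 ± 51.7 tags in hypoxia (SD, n = 6) and 93.2 ± 5.9 in normoxia (n = 3) (0.75 ± 0.18, limma, adjusted p = 0.0352). That call was lost in limma without 6 h replicate 1 or 2, 24 h replicate 1, or normoxia replicate 1 or 2 (adjusted p = 0.0638, 0.0741, 0.0641, 0.109 and 0.177) as well as without centring, with the centring on 62 sites and with the covariate (adjusted p = 0.86, 0.0747 and 0.223). No site of the 3 lists passed the test of 24 h against 6 h.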

How the data were processed

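The submitters' processing notes name Trimmomatic, BWA 0.7.17, SAMtools 1.10, HOMER and the build mm10. The authors called peaks with HOMER in each library alone, with the input of its own oxygen condition as control, keeping peaks with 50 tags, a 4-fold excess and a Poisson p-value of 1e-04 over the input and over the local 10000 bp, per the file headers. No source used here gives the HOMER version. The deposited signal is the normalized tag count per 10000000 tags. The deposited counts are tags in a peak, the deposited score is tags after a cap per base, the deposited focus ratio is a fraction of tags in the expected places, and the deposited fold over input, fold over local tags and clonal fold are ratios the authors' peak caller gave. In 2 PBS libraries (normoxia replicates 1 and 3) the caller scaled the library to the input, per the file headers. Normoxia PBS replicate 1 also had a 280 bp peak size and a cap of 2 tags per base.

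From these files, peaks overlapping by at least 1 bp were merged; a site's value in a library is its highest peak. Tags were tested with limma 3.58.1 (R 4.3.3) on log2(tags + 1), centred on each library's median over the 935 sites called in all 9 DEX libraries, with a 2-group fit for hypoxia against normoxia and a 3-group fit for the times. A fold change on this scale understates that of weak sites. Detection was tested over sites called in 3 or more of 18 libraries (DEX against PBS; the smallest p it can give is 0.00025) or 2 or more of 9 (oxygen, within PBS). All p-values are Benjamini-Hochberg adjusted over all sites of a test. Scripts were tested on simulated data.

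The neighbourhood of the Scarb1 falling site is not reported here. The members, gene lists and tests were chosen with earlier results of these data known. Every site of the 3 genes is named; the falling site is that with the most negative change; the sites most like it, the genes within 100 kb, and the strongest or changed sites of each list follow fixed rules. The alternatives were other scalings, pseudocount, filter, overlap, peak minimum, replicate block and left-out libraries.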

Additional observations from a re-analysis of the deposited data

How the results depend on the processing

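The log2 changes at the 3 falling sites kept their direction under every alternative run. Leaving out each library in turn gave -1.63 to -1.33 for Ppard, -1.42 to -1.22 for Scarb1 and -1.17 to -0.98 for Agtpbp1. Counts over all sites moved more. The 13 sites lower in hypoxia became 1 with the share of tags in peaks as a covariate, 5 without both libraries that stood apart (an alternative chosen after seeing the data) and 2 to 14 with 1 library left out; the lowest was without normoxia DEX replicate 2, and without 6 h replicate 2 or 24 h replicate 2 there were 8. The 13 sites called between 24 h and 6 h became 8 without centring, which moved the median change over all sites from 0.03 to -0.24, 6 without both libraries, and 5 to 29 with 1 left out: 5 without 6 h replicate 3, 24 h replicate 2 or 24 h replicate 3, 6 without 24 h replicate 1, 8 without normoxia replicate 2, and 22 and 29 without normoxia replicates 1 and 3. The 1418 sites called more often with DEX became 757 at the common minimum, and 1309 to 1607 with 1 library left out. The PBS oxygen count was 0 throughout. Between 24 h and 6 h, leaving out 1 library gave 0.42 to 0.72 for Ppard, -0.59 to -0.22 for Scarb1 and -0.31 to 0.12 for Agtpbp1, whose change reversed without 24 h replicate 1. Scarb1 site 10, at 0.06 ± 0.13 (SE), reversed to -0.21 without centring, to -0.036 centred on the 62 sites called in all 18 libraries and to -0.012 without 6 h replicate 1, its range with 1 library left out being -0.012 to 0.14. In hypoxia against normoxia, the small change near Insig2 reversed to -0.090 without centring, to -0.0086 on the centring over 62 sites and to -0.037 without normoxia replicate 3 (at most 0.13 with 1 left out), and that in Ppara to -0.058 without centring. The cause of these shifts was not tested. With libraries lacking a peak set to their minimum, Agtpbp1 site 3 averaged 85.9 tags after 24 h. At an overlap of 100 bp, Scarb1 site 4 was no longer called in all 9 DEX libraries and gave no value in the fit. The labels do not say that replicate numbers mark shared samples. Residual correlations were 0.01 to 0.51 for same-numbered DEX libraries (mean 0.23, 9 pairs) and -0.48 to 0.36 for other pairs (mean -0.12), and 6 of 9 libraries correlated best with their own number, a hint of pairing that did not hold for every pair. With a replicate block, 43 sites were called between 24 h and 6 h and 921 for DEX, and the DEX call of Scarb1 site 10 was lost (exact test, adjusted p = 0.0657). Depth limits the weak sites: those under 86.6 normalized tags could not be called in the shallowest library.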

Other observations

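The falling sites carried a large part of the receptor signal of their genes. Summed over the sites called in a library, Ppard held 197.4 to 495.9 tags in the 6 hypoxia DEX libraries and 768.6 to 1099.6 in the 3 normoxia DEX libraries. Of these sums, the falling site made up 33.3% to 49.7% in hypoxia and 48.8% to 52.4% in normoxia. For Scarb1 the sums were 249.5 to 568.2 tags in hypoxia and 773.3 to 1106.1 in normoxia, with 27.7% to 50.3% and 44.0% to 53.1% in the falling site. Agtpbp1 summed to 141.9 to 538.7 tags in hypoxia and 943.6 to 1043.3 in normoxia, and its falling site held 73.0% to 100% in hypoxia and 72.6% to 79.0% in normoxia. A library with fewer called sites has a smaller sum: Scarb1 had 3 to 5 called sites in hypoxia DEX libraries and 5 to 10 in normoxia DEX libraries.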
